A study of Homo sapiens with 6 samples.

Results

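The genes described here are 42 members of the type I interferon pathway, chosen by gene symbol: the receptor and its kinases, the transcription factors behind it, 2 cytosolic RNA sensors, and genes that interferon induces. Of the 42, 39 were in the count table of 18798 genes and 33 had enough counts to be tested, among 14797 genes tested in all. RNA-seq counts came from 6 libraries of U937, an established human line of monocytic origin, grown with 10% serum and selected with geneticin at 500 µg/ml. The 3 ΔNSPs libraries came from clones, described in the labels as independent, that had been depleted of CTSG, ELANE and PRTN3 together. The 3 Control libraries came from separate lines transduced with control plasmid. No interferon, virus or other stimulus is named in the labels for either group, so the values are baseline levels. Each ΔNSPs library stands for 1 clone, and clonal variation cannot be told apart from the depletion within a single clone. The Control libraries are given as lines, so an effect of cloning cannot be told apart from the depletion between the groups either.

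Type I interferons bind a receptor of the chains IFNAR1 and IFNAR2, which carry the kinases TYK2 and JAK1. The kinases activate STAT proteins, which enter the nucleus with IRF9 and bind the interferon-stimulated response element (ISRE) in front of target genes. The products of those genes include antiviral effectors, and also the sensors and transcription factors that produce more interferon, so the pathway feeds back on itself. Monocytic cells are both a source of interferon and a target of it.

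The promoters below are shown because they carry the element through which interferon acts on its target genes, at genes of very different level in these cells. The capitals mark matches to the ISRE core, GAAA, any 2 bases and GAAA again, on either strand, found by searching 250 bases before to 50 bases after the annotated start; overlapping matches run together. The sequences are from RefSeq on GRCh38.p14 and are written 5′ to 3′ on the strand of the gene. ISG15 lies at chr1:1013247-1013546 (plus strand), with overlapping matches that begin at positions -113 and -107 relative to the start. IFIH1 lies at chr2:162318635-162318934 (minus strand), with overlapping matches at -159 and -153 and a separate match at -21. DTX3L lies at chr3:122564088-122564387 (plus strand), with 1 match at -6. BST2 lies at chr19:17405581-17405880 (minus strand), with overlapping matches at -130 and -124. IFIT5 lies at chr10:89414318-89414617 (plus strand), with matches at -45, -19 and -4.
ISG15: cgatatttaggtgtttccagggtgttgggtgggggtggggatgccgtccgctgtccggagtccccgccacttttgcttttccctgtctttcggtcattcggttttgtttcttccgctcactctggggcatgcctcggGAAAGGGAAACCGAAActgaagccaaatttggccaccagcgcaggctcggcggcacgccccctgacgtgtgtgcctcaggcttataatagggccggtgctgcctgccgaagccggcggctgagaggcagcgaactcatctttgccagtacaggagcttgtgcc
IFIH1: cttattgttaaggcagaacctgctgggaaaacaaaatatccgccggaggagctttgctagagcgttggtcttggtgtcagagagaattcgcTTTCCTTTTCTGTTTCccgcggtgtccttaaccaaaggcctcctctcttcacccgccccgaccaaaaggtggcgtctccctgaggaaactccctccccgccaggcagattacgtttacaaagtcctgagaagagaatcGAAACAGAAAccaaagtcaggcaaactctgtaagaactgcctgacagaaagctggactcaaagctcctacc
DTX3L: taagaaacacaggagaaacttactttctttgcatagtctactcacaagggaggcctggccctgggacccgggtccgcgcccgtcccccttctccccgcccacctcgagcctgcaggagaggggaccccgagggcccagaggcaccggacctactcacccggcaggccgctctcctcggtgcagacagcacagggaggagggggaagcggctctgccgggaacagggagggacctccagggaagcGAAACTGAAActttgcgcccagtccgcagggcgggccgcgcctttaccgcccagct
BST2: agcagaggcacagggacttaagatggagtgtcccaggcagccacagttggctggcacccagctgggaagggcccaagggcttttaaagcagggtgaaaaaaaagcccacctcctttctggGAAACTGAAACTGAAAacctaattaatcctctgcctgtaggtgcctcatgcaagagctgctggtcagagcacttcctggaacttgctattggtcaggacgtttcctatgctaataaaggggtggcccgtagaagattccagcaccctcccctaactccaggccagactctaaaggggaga
IFIT5: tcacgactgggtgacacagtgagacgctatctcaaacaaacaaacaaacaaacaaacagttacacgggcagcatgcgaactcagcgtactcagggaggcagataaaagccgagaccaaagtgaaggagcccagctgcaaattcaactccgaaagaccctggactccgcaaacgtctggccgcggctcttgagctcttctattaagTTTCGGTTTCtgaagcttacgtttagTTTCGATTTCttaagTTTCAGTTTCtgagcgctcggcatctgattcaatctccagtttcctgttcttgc

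A promoter entry was found for 32 of the 42 genes, and 20 of these 32 (62.5%) held at least 1 ISRE core, against 1195 of 27305 genes (4.38%) in the whole promoter table. The core of the gamma-activated site, searched as TTCNNNGAA, which reads alike on both strands, was present in 8 of the 32 (25%), against 2560 of all genes (9.38%). PARP9 and DTX3L, which lie head to head on chromosome 3, share 1 ISRE core at chr3:122564332-122564341, at -41 from the PARP9 start and at -6 from the DTX3L start. IFIT3 had the most matches, 4, in the windows of its 2 annotated starts. A match describes the letters in these windows and not the binding of a factor.

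All 6 libraries were of similar depth, with 12184903 to 13782854 counts in the ΔNSPs libraries and 11476619 to 13543076 counts in the Control libraries. A count of 3 corresponded to 0.214 to 0.260 CPM, the count scaled by the TMM-adjusted library total. The targeted genes were lower in every clone than in every Control line, at 4.09% of the Control level for CTSG, 2.12% for ELANE and 12.8% for PRTN3, with edgeR adjusted p-values of 0.0215, 0.145 and 0.217. Of 12 monocytic markers, all were in the table and 9 reached 1 CPM in every library; their summed level was 1350 to 2208 CPM in ΔNSPs and 1527 to 1703 CPM in Control, with CD14 at 0.337 CPM or less. T cell markers summed to 0.421 CPM at most in ΔNSPs and 0.260 CPM in Control. Erythroid markers, mostly HBB, summed to 86.1 to 116 CPM in ΔNSPs and 74.7 to 134 CPM in Control. B cell markers summed to 25.2 to 59.2 CPM in ΔNSPs and 38.4 to 69.4 CPM in Control, with CD79B at 0 counts in clone 3. PECAM1, an endothelial marker, had 53.2 to 65.1 CPM in ΔNSPs and 43.8 to 52.6 CPM in Control. Megakaryocyte, epithelial and fibroblast markers each summed to 9.38 CPM or less in every library. Control line 1 was the Control library nearest to the ΔNSPs mean for 47.6% of all tested genes, and for 14 of the 33 tested interferon genes (42.4%).

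The interferon genes spanned a wide range of baseline levels, and several classical interferon-induced genes were close to the detection floor. Over the 6 libraries, 4 genes averaged at least 100 CPM (IRF3, MX2, IFITM2 and BST2), 15 averaged 10 to 100 CPM, 13 averaged 1 to 10 CPM, and 7 averaged under 1 CPM. The lowest group held IRF9, OASL, IFIT5, IFITM1, IFITM3, IFI27 and IFI44. IFI44L, EPSTI1 and XAF1 were absent from the table. No gene in the table had fewer than 10 counts over the 6 libraries. Per kilobase of the principal annotated transcript, IFITM2 (157 CPM per kb) and BST2 (150 CPM per kb) stood highest, followed by IRF3 (60.1), IFI6 (56.7) and MX2 (48.0). Close paralogs differed widely on this per-length scale: MX1 was at 0.358 CPM per kb beside MX2 at 48.0, and IFITM1 and IFITM3 were at 0.232 and 0.599 CPM per kb beside IFITM2. Some IFITM counts are uncertain. Of their 50-base stretches, 32.0% for IFITM1 and 17.4% for IFITM3 also occur in another gene, chiefly IFITM2. For IFITM2 the share was 34.1%, chiefly with IFITM1.

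**Figure D1:**
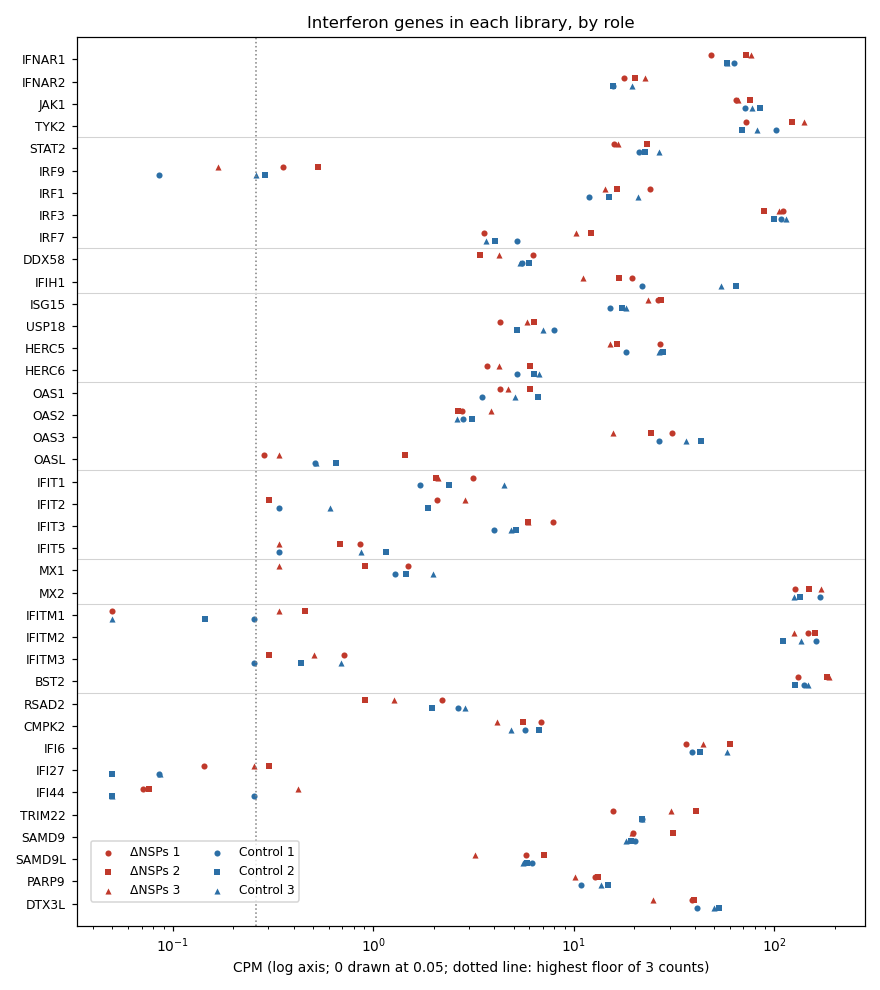
CPM of the 39 interferon genes in the table, in each library, on a log axis, grouped by role from the receptor down to other induced genes. Red marks are ΔNSPs clones, blue marks Control lines, and the dotted line is the highest floor of 3 counts; ISG15 and IFIH1 show the groups apart, and IRF9, IFITM1, IFI27 and IFI44 lie around the floor.

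The comparison of the groups asked whether depletion of the 3 proteases went with a change in these genes. With edgeR's quasi-likelihood test and adjustment over all 14797 genes, 0 of the 33 tested genes passed an adjusted p of 0.05, where 3 of all genes did (0.0203%). The lowest adjusted p among the 33 was 0.171, shared by ISG15 and IFIH1. At an unadjusted p under 0.05, ISG15 and IRF7 were higher and IFIH1 and DTX3L were lower, 4 of 33, where 17.8% of all tested genes had such a p. DESeq2 called ISG15 higher and IFIH1 lower, 2 of the 31 interferon genes it gave an adjusted p, where it called 498 of 13672 genes (3.64%). The groups did not overlap for 4 of the 33, ISG15 and IFIT3 higher and IFIH1 and DTX3L lower, against 23.9% of all tested genes. The shares at an unadjusted p under 0.05 and without overlap were thus no larger than those of all genes.

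In bulk RNA, fewer cells that express a gene and less RNA per cell cannot be told apart. The fold changes went both ways. Of the 33, 15 had a positive and 18 a negative log2 fold change (ΔNSPs over Control), with a median of -0.05, against 0.00 over all tested genes. They ran from -1.56 for IFIH1 to 1.01 for IRF7, which were the 2 members beyond 2-fold. The median size of the log2 fold change, regardless of sign, was 0.29 for the interferon genes and 0.22 for all tested genes. Every role group with more than 2 tested genes held both signs.

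**Figure D2:**
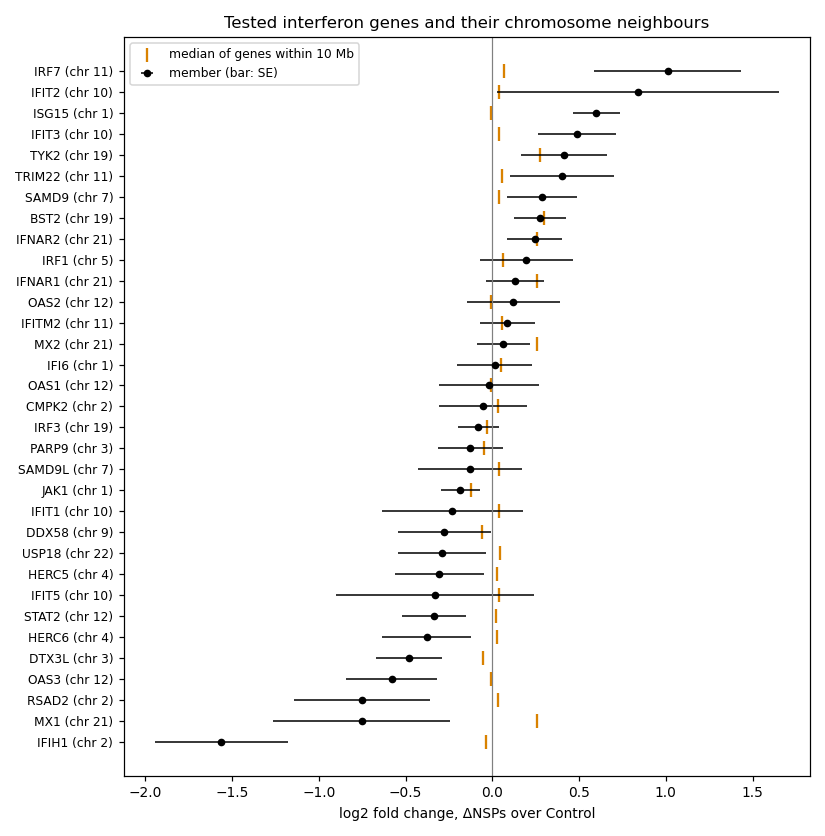
Log2 fold change, ΔNSPs over Control, with its SE, for the 33 tested interferon genes, ordered by value. Orange ticks give the median log2 fold change of expressed genes within 10 Mb on the same chromosome: IFIH1 and ISG15 lie far from their ticks, while TYK2, BST2 and IFNAR2 lie within 1 SE of theirs.

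The receptor and its kinases were expressed in every library, and 0 of these 4 genes passed a test. IFNAR1, the lower-affinity receptor chain, had 48.4, 71.9 and 76.1 CPM in ΔNSPs clones 1 to 3, against 63.1, 57.9 and 58.3 CPM in Control lines 1 to 3 (log2 fold change 0.13, SE 0.17). IFNAR2, the chain that binds interferon more tightly, had 17.7, 20.2 and 22.6 CPM in the clones, against 15.7, 15.7 and 19.6 CPM in the Control lines (log2 fold change 0.24, SE 0.16). For both chains clones 2 and 3 lay above every Control line and clone 1 did not. TYK2, the kinase bound to IFNAR1, had 72.1, 123 and 141 CPM in ΔNSPs, against 101, 69.3 and 81.5 CPM in Control (edgeR log2 fold change 0.41 with SE 0.25, adjusted p = 0.408). JAK1, the kinase bound to IFNAR2, had 64.7, 75.3 and 65.8 CPM in ΔNSPs, against 71.1, 85.0 and 77.7 CPM in Control (log2 fold change -0.18, SE 0.11). TYK2 had the same order of clones as the receptor chains, with clone 1 within the Control range, while JAK1 overlapped between the groups with lower levels in clones 1 and 3.

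Genes around the receptor chains and around both kinases differed in the same direction as the gene itself. Genes within 10 Mb of IFNAR1 and IFNAR2 on chromosome 21, 61 genes that averaged 8 CPM or more, had a median log2 fold change of 0.26. Their median log2 ratio to the Control mean was -0.04, 0.34 and 0.41 around IFNAR1 in clones 1 to 3. In Control lines 1 to 3 it was 0.15, -0.06 and -0.10. The 367 such genes around TYK2 on chromosome 19 had a median log2 fold change of 0.28. Their median ratios were 0.03, 0.28 and 0.48 in clones 1 to 3, against 0.15, -0.13 and -0.03 in Control lines 1 to 3. The log2 fold changes of IFNAR1, IFNAR2 and TYK2 all lay within 1 SE of these regional medians. The part of these regional values in the levels of these genes was not tested.

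Among the transcription factors, IRF7 had the largest difference and IRF3 the least. IRF7 (ENSG00000185507, chr11:612553-615999), the interferon-inducible regulator of interferon alpha genes, had 3.56, 12.2 and 10.3 CPM in ΔNSPs clones 1 to 3, against 5.19, 4.06 and 3.64 CPM in Control lines 1 to 3. Clones 2 and 3 were above every Control line and clone 1 was below every Control line, so the groups overlapped. The group means were 8.67 ± 4.53 CPM in ΔNSPs and 4.30 ± 0.803 CPM in Control (SD, n = 3 each), a log2 fold change of 1.01 with an SE of 0.43, at adjusted p-values of 0.276 in edgeR and 0.163 in DESeq2. Without clone 1 the log2 fold change was 1.38 and passed in edgeR (adjusted p = 0.0254), where edgeR called 928 of 15050 genes (6.17%). IRF7 did not pass in edgeR with any other library left out. Genes within 10 Mb of IRF7 had a median log2 fold change of 0.07.

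IRF3, the constitutive factor that switches on interferon beta, had 111, 89.0 and 105 CPM in ΔNSPs, against 108, 99.8 and 115 CPM in Control (edgeR log2 fold change -0.08 with SE 0.12, adjusted p = 0.749). STAT2, the partner of IRF9 in the complex that binds the ISRE, had 15.8, 23.2 and 16.6 CPM in ΔNSPs, against 21.1, 22.7 and 26.5 CPM in Control (log2 fold change -0.34, SE 0.18). IRF1, an activator induced by interferons and cytokines, had 24.1, 16.3 and 14.2 CPM in ΔNSPs, against 11.8, 15 and 21.0 CPM in Control (log2 fold change 0.20, SE 0.27). These 3 genes overlapped between the groups, and clone 1 was at opposite ends for IRF1, where it was the highest library of all, and STAT2, where it was the lowest. IRF9, the DNA-binding part of that complex, had 5, 7 and 2 counts in ΔNSPs, against 1, 4 and 3 counts in Control, and was not tested.

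IFIH1 (ENSG00000115267, chr2:162267079-162318703), which encodes MDA5, a sensor of long double-stranded RNA in the cytosol, had the largest difference of the 33 tested genes. It had 19.5, 16.8 and 11.1 CPM in ΔNSPs clones 1 to 3, against 21.9, 64.3 and 53.9 CPM in Control lines 1 to 3. Every clone lay below every Control line, with Control line 1 close above clone 1 and Control lines 2 and 3 far higher. The means were 15.8 ± 4.26 CPM in ΔNSPs and 46.7 ± 22.1 CPM in Control (SD, n = 3 each), a log2 fold change of -1.56 with an SE of 0.38, at adjusted p-values of 0.171 in edgeR and 0.00134 in DESeq2. Genes within 10 Mb of IFIH1 had a median log2 fold change of -0.04. The DESeq2 call was lost when Control line 2, Control line 3 or clone 2 was left out, where DESeq2 called 0.39%, 0.458% and 1.36% of all genes. It held without Control line 1 (adjusted p = 1.13e-09, with 5.04% of all genes called), clone 1 (0.0373, with 12.4% called) or clone 3 (0.0330, with 1.64% called).

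DDX58, which encodes RIG-I, the sensor of short RNA with a triphosphate end, averaged 1.18 CPM per kb of transcript, against 8.69 CPM per kb for IFIH1, and overlapped between the groups. It had 6.27, 3.41 and 4.21 CPM in ΔNSPs, against 5.53, 5.94 and 5.37 CPM in Control (edgeR log2 fold change -0.28 with SE 0.27, adjusted p = 0.616). Control lines 2 and 3, in which IFIH1 was high, stood close to Control line 1 for DDX58.

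ISG15 (ENSG00000187608, chr1:1001138-1014540), a ubiquitin-like protein that is attached to other proteins after interferon, was higher in every clone than in every Control line. It had 26.2, 27.2 and 23.4 CPM in ΔNSPs, against 15.1, 17.4 and 18.3 CPM in Control. The libraries within each group lay close together, and the gap between the groups was wider than the range within either. The means were 25.6 ± 1.96 CPM in ΔNSPs and 16.9 ± 1.66 CPM in Control (SD, n = 3 each), 1.51-fold, or a log2 fold change of 0.60 with an SE of 0.14, at adjusted p-values of 0.171 in edgeR and 0.0288 in DESeq2. Genes within 10 Mb had a median log2 fold change of -0.01. The DESeq2 call was lost when any Control line or clone 2 was left out. It held without clone 1 (adjusted p = 0.0341, with 12.4% of all genes called) or clone 3 (0.0482, with 1.64% called).

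USP18, HERC5 and HERC6, grouped here with ISG15, overlapped between the groups, with log2 fold changes below 0. USP18, the protease that removes ISG15 and also dampens receptor signalling, had 4.28, 6.36 and 5.81 CPM in ΔNSPs, against 7.91, 5.22 and 7.02 CPM in Control (log2 fold change -0.29, SE 0.25). HERC5, the main ISG15 ligase in human cells, had 27.0, 16.4 and 15.2 CPM in ΔNSPs, against 18.2, 27.8 and 26.4 CPM in Control (edgeR log2 fold change -0.30 with SE 0.26, adjusted p = 0.556). HERC6, its neighbour and paralog, had a log2 fold change of -0.38 (SE 0.26). HERC5 was high in clone 1 and in Control lines 2 and 3. Some USP18 counts are uncertain, since 23.4% of its 50-base stretches also occur in another gene, chiefly USP41.

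**Figure D3:**
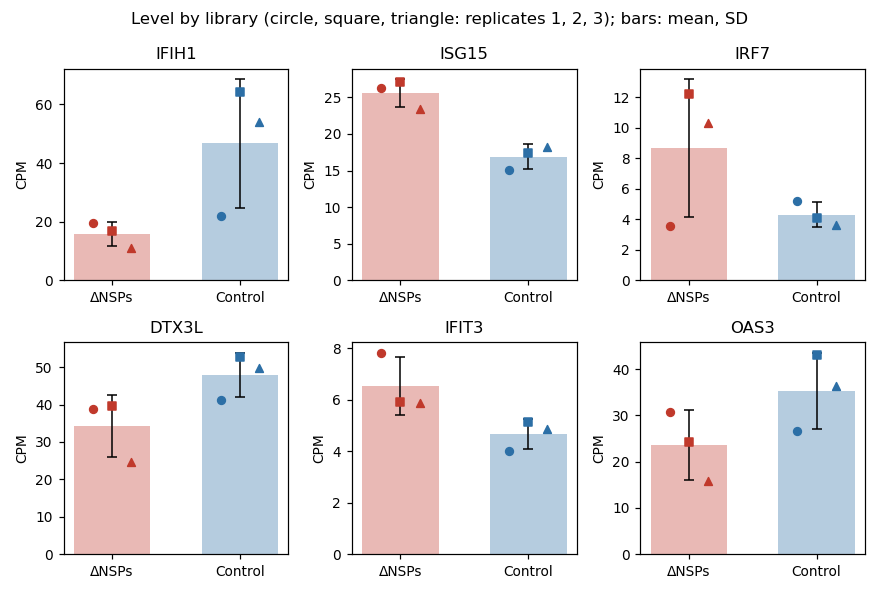
CPM of IFIH1, ISG15, IRF7, DTX3L, IFIT3 and OAS3, with bars for the mean of 3 libraries, error bars for the SD and circles, squares and triangles for replicates 1, 2 and 3. ΔNSPs and Control points do not overlap for IFIH1, ISG15, DTX3L and IFIT3; Control line 1 is the lowest Control library for all of these but IRF7, where it is the highest.

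The oligoadenylate synthetases, antiviral enzymes that are switched on by double-stranded RNA, included no gene that passed a test. OAS3, with the highest level of them per length, had 30.8, 24.2 and 15.7 CPM in ΔNSPs clones 1 to 3, against 26.6, 43.0 and 36.4 CPM in Control lines 1 to 3 (edgeR log2 fold change -0.58 with SE 0.26, adjusted p = 0.293). Clones 2 and 3 were below every Control line, and clone 1 was above Control line 1. OAS1 and OAS2, its neighbours on chromosome 12, differed by log2 fold changes of -0.02 with SE 0.29 and 0.12 with SE 0.27, at means of 5.02 ± 0.926 and 3.10 ± 0.673 CPM in ΔNSPs and 5.06 ± 1.55 and 2.84 ± 0.259 CPM in Control. OASL, an enzymatically inactive relative that binds RIG-I, had 4, 19 and 4 counts in ΔNSPs, against 6, 9 and 6 counts in Control, and was not tested.

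The IFIT proteins bind foreign RNA ends and block its translation, and their genes lie side by side on chromosome 10. IFIT3, which stabilises the complex of the family, had 7.84, 5.90 and 5.90 CPM in ΔNSPs, against 4.0, 5.14 and 4.85 CPM in Control (edgeR log2 fold change 0.49 with SE 0.23, adjusted p = 0.303). Every clone was above every Control line, clones 2 and 3 by less than the range of the Control lines. IFIT2 was uneven within both groups, with 29, 4 and 34 counts in ΔNSPs, against 4, 26 and 7 counts in Control. IFIT1 had 3.14, 2.04 and 2.11 CPM in ΔNSPs, against 1.70, 2.39 and 4.51 CPM in Control, and IFIT5 averaged 0.624 ± 0.264 CPM in ΔNSPs and 0.789 ± 0.415 CPM in Control. Of these 4 neighbouring genes, IFIT3 alone had groups that did not overlap.

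The MX proteins are dynamin-like GTPases that trap viral components. MX2, which acts against retroviruses including HIV, had 127, 149 and 171 CPM in ΔNSPs, against 169, 134 and 125 CPM in Control (edgeR log2 fold change 0.06 with SE 0.15, adjusted p = 0.858). MX1, which acts against influenza and other RNA viruses, had 1.5, 0.908 and 0.337 CPM in ΔNSPs, against 1.28, 1.45 and 1.99 CPM in Control (log2 fold change -0.75, SE 0.51). The genes are adjacent on chromosome 21, and both overlapped between the groups. Expressed genes within 10 Mb had a median log2 fold change of 0.26 around each. Unlike IFNAR1 and IFNAR2 on the same chromosome, both MX genes lay more than 1 SE below this regional median, and the part of the regional values was not tested.

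Of the membrane restriction factors, BST2 and IFITM2 had the highest levels per length of all 39 genes, and neither passed a test. BST2 (tetherin), which holds budding virions on the cell surface, had 130, 182 and 188 CPM in ΔNSPs clones 1 to 3, against 140, 127 and 147 CPM in Control lines 1 to 3 (edgeR log2 fold change 0.27 with SE 0.15, adjusted p = 0.374). Clones 2 and 3 were above every Control line and clone 1 was within the Control range. The 228 expressed genes within 10 Mb of BST2 on chromosome 19 had a median log2 fold change of 0.30. Their median log2 ratios to the Control mean were 0.02, 0.35 and 0.47 in clones 1 to 3. In Control lines 1 to 3 these were 0.14, -0.12 and -0.03. The part of these genes in the BST2 level was not tested. IFITM2, which hinders fusion of viruses with endosomes, had 147, 160 and 125 CPM in ΔNSPs, against 160, 110 and 136 CPM in Control (log2 fold change 0.09, SE 0.16). Its neighbours IFITM1 and IFITM3 were not tested, with 0, 6 and 4 counts for IFITM1 and 10, 4 and 6 counts for IFITM3 in ΔNSPs, against 3, 2 and 0 counts and 3, 6 and 8 counts in Control.

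Among the 8 tested genes of the other induced group, DTX3L was the one whose groups did not overlap. DTX3L (ENSG00000163840, chr3:122564238-122575203), a ubiquitin ligase that works as a complex with PARP9, had 38.7, 39.6 and 24.7 CPM in ΔNSPs, against 41.3, 52.8 and 49.7 CPM in Control. Clones 1 and 2 were just below Control line 1, and clone 3 was well below all other libraries. The means were 34.3 ± 8.37 CPM in ΔNSPs and 47.9 ± 5.97 CPM in Control (SD, n = 3 each), a log2 fold change of -0.48 with an SE of 0.19, at adjusted p-values of 0.257 in edgeR and 0.189 in DESeq2. PARP9, which shares the promoter element shown above, had 12.8, 13.2 and 10.1 CPM in ΔNSPs, against 10.9, 14.8 and 13.7 CPM in Control (log2 fold change -0.13, SE 0.19). PARP9 overlapped between the groups, and clone 3 was the lowest library for both genes of the pair.

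TRIM22, a ubiquitin ligase that restricts retroviral transcription, had 15.6, 40.6 and 30.5 CPM in ΔNSPs, against 21.9, 21.9 and 21.8 CPM in Control (edgeR log2 fold change 0.40 with SE 0.30, adjusted p = 0.503). The Control lines were nearly equal (SD 0.0237 CPM), while the clones differed among themselves by more than any of them differed from Control. At 257, 302 and 252 counts in Control lines 1 to 3, that SD is smaller than counting error alone would give. It is therefore no measure of the spread between lines. IFI6, a mitochondrial and endoplasmic reticulum protein that limits apoptosis and flavivirus replication, had 36.4, 60.0 and 44.0 CPM in ΔNSPs, against 39.0, 42.4 and 57.9 CPM in Control (log2 fold change 0.01, SE 0.21). SAMD9 and SAMD9L, neighbouring genes whose products restrict poxviruses, differed by log2 fold changes of 0.29 with SE 0.20 and -0.13 with SE 0.30, with the highest SAMD9 level, 31.3 CPM, in clone 2. RSAD2 (viperin), which makes a chain-terminating nucleotide, had 2.21, 0.908 and 1.26 CPM in ΔNSPs, against 2.64, 1.96 and 2.86 CPM in Control (edgeR log2 fold change -0.75 with SE 0.39, adjusted p = 0.351). CMPK2, the adjacent mitochondrial nucleotide kinase gene, had a log2 fold change of -0.05 (SE 0.26). IFI27 had 2, 4 and 3 counts in ΔNSPs, against 1, 0 and 1 counts in Control, so the groups did not overlap, and IFI44 had 1, 1 and 5 counts in ΔNSPs, against 3, 0 and 0 counts in Control. Neither gene had enough counts to be tested.

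The clones differed from each other in these genes more than the Control lines did. For the 19 tested interferon genes with a mean of 10 to 200 CPM, the median SD of log2(CPM + 0.5) was 0.35 in ΔNSPs and 0.18 in Control. For all 8930 tested genes in that range it was 0.18 in ΔNSPs and 0.12 in Control, so the wider spread of the clones was also present in genes at large. Clone 2 was the highest clone for 14 of the 33 interferon genes (42.4%, against 32.1% of all tested genes), and clone 3 was the lowest clone for 14 (42.4%, against 32.1%). The levels did not rise or fall together: clone 2 was the highest library for TRIM22, SAMD9 and IRF7 and the lowest for DDX58.

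**Figure D4:**
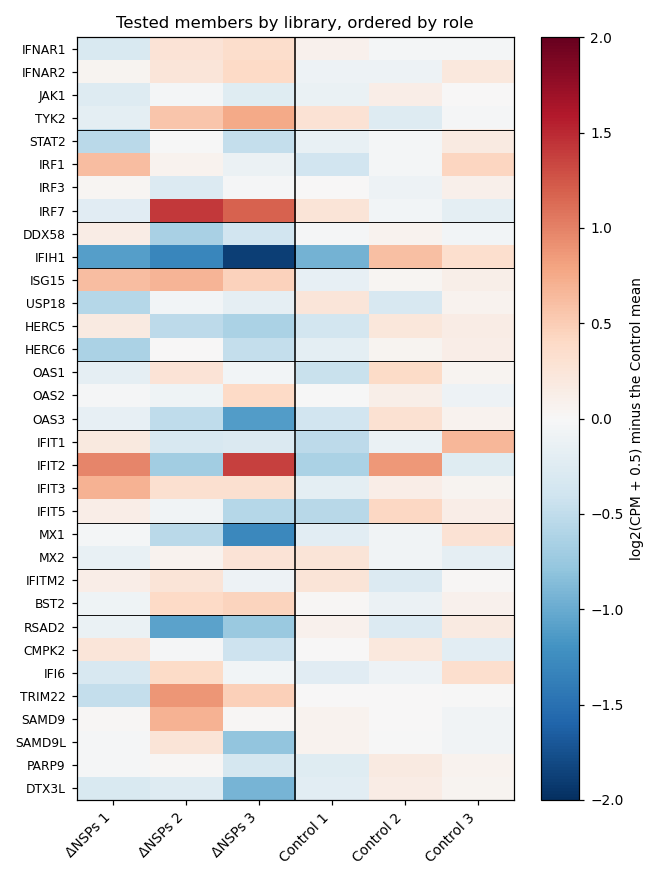
Level of the 33 tested interferon genes in each library as log2(CPM + 0.5) minus the Control mean, ordered by role (red higher, blue lower). The IFIH1 row is blue in the 3 clones and in Control line 1, the ISG15 row is red in the 3 clones, and the IRF7 row is red in clones 2 and 3.

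The count of calls moved with single libraries, most of all with clone 1. Without clone 1, edgeR called IRF7 and TRIM22 higher, 2 interferon genes, where it called 928 of 15050 genes (6.17%). Without clone 1, DESeq2 called 7 interferon genes, where it called 12.4% of all genes: TYK2, IRF7, ISG15, BST2 and TRIM22 higher and IFIH1 and OAS3 lower. With any other library left out, edgeR called 0 of the interferon genes. It then called 0.131% of all genes without Control line 1, 0.0133% without clone 2, 0.00655% without clone 3 and 0.0% without Control line 2 or 3. The log2 fold change without clone 1 in DESeq2 was 0.64 for TYK2 (adjusted p = 0.00891), 0.42 for BST2 (0.0102) and -0.83 for OAS3 (0.0236). For these 3 genes, as for IRF7 and TRIM22, clone 1 lay on the Control side of clones 2 and 3.

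Several of the lowest members share exon bases with another annotated gene, and such bases may not be assigned to either gene by a counter that works per gene; how the counter treated overlaps and strand is not given in the sources used here. All bases (100%) of the principal IRF9 transcript also lie in exons of AL136295.5, a locus on the same strand that runs through IRF9 and was not in the table. For IFNAR2 the share was 67.8% on the same strand, with AP000295.1, and 90.3% with both strands counted. For IFITM1 it was 41.1%, with IFITM2. For XAF1, absent from the table, it was 70.0% on the opposite strand, with PRAL. IRF3 shared 21.5% with BCL2L12 and IRF1 shared 16.2% with C5orf56, both on the opposite strand. Over the exons of all transcripts the same-strand shares were lower, at 48.4% for IRF9, 44.2% for IFNAR2 and 32.5% for IFITM1. Among annotated protein-coding genes, 46.6% of those with a share of over 25% to 50% on this measure reached a mean of 1 CPM, against 57.5% of those that share none. The percentage reaching 1 CPM was 73.5% at a share of over 0% to 25%, 25.9% at over 50% to 75% and 4.16% at over 75%. The levels of IRF9, IFNAR2 and IFITM1 may therefore be read only as counts that were assigned to them, and the part of the sharing in those levels was not tested. OASL, IFI27, IFI44, IFI44L and EPSTI1, also low or absent, share no exon bases with another gene.

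**Figure D5:**
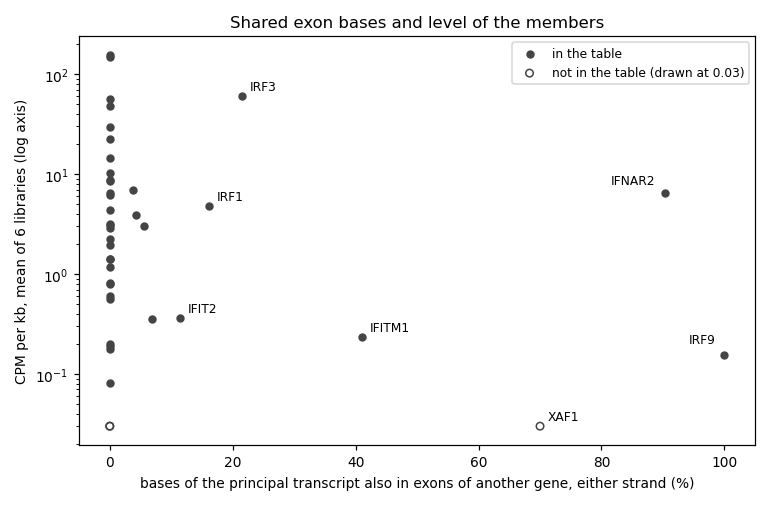
Mean level of each interferon gene (CPM per kb of its principal transcript, log axis) against the percentage of that transcript's bases that also lie in exons of another gene on either strand. IRF9, at 100%, and IFITM1, at 41.1%, are low; IFNAR2, at 90.3%, is not; most low genes share no bases.

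Genes with an ISRE core in their promoter window spanned the whole range of levels and both directions. Of the 20 genes with a core, 18 were in the table and 14 were tested, with mean levels from 0.137 CPM for IFI44 to 152 CPM for BST2 and a median log2 fold change of -0.27, 5 positive and 9 negative. Of the 12 without a core, 10 were tested, with a median of -0.09, 3 positive and 7 negative. Without a core means without this exact form, with 2 bases between the GAAA repeats. The windows of OAS1, DDX58, CMPK2 and XAF1 hold GAAACGAAA on either strand, with a single base between, and were counted as without. The 9 tested genes with no promoter entry had a median of 0.12, 7 positive and 2 negative. ISG15 and IFIH1, whose promoters are printed above, both hold cores and differed in opposite directions.

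The rest of the pathway was read from 4 wider lists. The 21 interferon genes listed, IFNB1, IFNG and the alpha and lambda interferons among them, were all absent from the table, so no ligand level is given. Of 13 other receptors and inhibitors, 12 were in the table and 11 were tested, with 0 edgeR or DESeq2 calls and 2 at an unadjusted p under 0.05, both higher, where 17.8% of all tested genes had such a p. PTPN6, a phosphatase that dampens JAK signalling, drew the most counts of that list, with 211 ± 21.3 CPM in ΔNSPs and 203 ± 4.12 CPM in Control (SD, n = 3 each). The higher genes were IFNGR2, the signalling chain of the interferon gamma receptor, with 54.3, 73.5 and 71.8 CPM in ΔNSPs, against 53.9, 49.8 and 48.9 CPM in Control (log2 fold change 0.39, SE 0.14), and PTPN1, a phosphatase of JAK kinases (log2 fold change 0.39, SE 0.16). Expressed genes within 10 Mb had median log2 fold changes of 0.26 around IFNGR2 and 0.40 around PTPN1, and the part of these regional values was not tested.

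Of 28 sensing and adaptor genes, 23 were in the table and 22 were tested, with 0 edgeR or DESeq2 calls; an unadjusted p under 0.05 was reached by 2 genes on the higher and 1 on the lower side, against 17.8% of all tested genes. ADAR, an RNA-editing enzyme that keeps cellular RNA from being sensed, drew the most counts of that list, with 353 ± 42.1 CPM in ΔNSPs and 395 ± 22.2 CPM in Control (SD, n = 3 each). The DNA sensor gene CGAS had 22.1, 24.6 and 25.9 CPM in ΔNSPs, against 19.8, 16.9 and 17.0 CPM in Control (edgeR log2 fold change 0.43 with SE 0.14, adjusted p = 0.192). MYD88, the adaptor of most Toll-like receptors, had 95.0, 103 and 92.9 CPM in ΔNSPs, against 77.6, 84.6 and 82.6 CPM in Control (log2 fold change 0.25, SE 0.10). RNF135, a ubiquitin ligase that activates RIG-I, had 20.9, 20.7 and 23.6 CPM in ΔNSPs, against 25.8, 26.3 and 29.6 CPM in Control (log2 fold change -0.33, SE 0.12). For each of these 3 genes the groups did not overlap, as for 23.9% of all tested genes, and each difference was under 2-fold. Of the 22 tested genes of the list, 1 lay beyond 2-fold, at a log2 fold change of -1.43.

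Of 71 other interferon-induced genes, 66 were in the table and 54 were tested, with 0 edgeR calls and a median log2 fold change of -0.07; an unadjusted p under 0.05 was reached by 4 genes on the higher and 8 on the lower side, against 9.23% and 8.6% of all tested genes. PSMB8, an immunoproteasome subunit gene, drew the most counts of that list, with 201 ± 22.5 CPM in ΔNSPs and 172 ± 15.6 CPM in Control (SD, n = 3 each). Genes with such a p on the higher side were LGALS9, OGFR, MLKL and APOBEC3B. Those on the lower side were PARP10, PARP14, UBE2L6, APOL6, PHF11, SLFN5, SLFN11 and MOV10. PHF11 had 24.8, 20.3 and 22.2 CPM in ΔNSPs, against 28.0, 32.8 and 35.3 CPM in Control (edgeR log2 fold change -0.51 with SE 0.14, adjusted p = 0.178). PARP14, a relative of PARP9 among the ADP-ribosyltransferases, had 26.9, 25 and 15 CPM in ΔNSPs, against 26.6, 40.5 and 37.4 CPM in Control (log2 fold change -0.64, SE 0.24). MLKL, the effector of necroptosis, had 41.1, 40.3 and 41.1 CPM in ΔNSPs, against 34.5, 30.3 and 31.5 CPM in Control (log2 fold change 0.35, SE 0.10).

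CXCL10, a chemokine gene induced by interferons, was the DESeq2 call of that list and was high in too few libraries to be tested in edgeR. DESeq2 gave 52 genes of the list an adjusted p and called 1, where it called 3.64% of all genes. CXCL10 had 5, 4 and 1 counts in ΔNSPs clones 1 to 3, against 2, 549 and 446 counts in Control lines 1 to 3. This is 0.356, 0.303 and 0.0842 CPM in ΔNSPs, against 0.170, 39.8 and 38.6 CPM in Control. Control line 1 was thus at the level of the clones and Control lines 2 and 3 were far above it, so the groups overlapped although DESeq2 gave a log2 fold change of -6.72 (SE 1.65; adjusted p = 0.00543). IFIH1 was likewise high in Control lines 2 and 3, with Control line 1 near the clones but above every one of them.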

How the data were processed

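The values deposited by the authors are whole-number counts per Ensembl gene, not normalized, in 1 table for the 6 libraries. The submitters' processing notes name HISAT2 2.0.0 and HTSeq 0.11.1, beside SAMtools 1.5.9 and FastQC, and the build GRCh38.p12; which annotation, strand option or filter was applied is not stated there. Symbols, positions and exons were taken from GENCODE release 29 (18771 of 18798 genes matched), and promoters from RefSeq.

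Counts were tested in R 4.3.3 with edgeR 4.0.16 (TMM, filterByExpr by group, quasi-likelihood, two-sided, Benjamini-Hochberg over 14797 genes, adjusted p under 0.05). The SE is the absolute log2 fold change over the square root of edgeR's F. DESeq2 1.42.0 and limma 3.58.1 (voom with quality weights), other size factors and filters, the replicate block and leaving out each library were alternatives. The fits were tested on simulated data with genes changed by a known fold. Simulated counts were drawn independently for each library from each gene's fitted mean and dispersion, and the changed genes were not among the lowest in level. The simulation held no outlying clone or line and no regional shift, so its rates need not hold for the real libraries. Of genes changed 2-fold, edgeR recovered 62%, DESeq2 72% and limma voom 60%. Of all calls at an adjusted p under 0.05, 7.14% were false in edgeR, 14.4% in DESeq2 and 7.27% in limma voom. CPM are counts scaled to a common TMM-adjusted total; floors of 3 counts cover counting error only.

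Groups came from the labels, and p-values measure the spread between these lines and clones, for which no batch is given. Regional medians used genes within 10 Mb on either side that averaged 8 CPM or more. The rule for named genes took members past a threshold or at an unadjusted p under 0.05, the member of each role with the highest mean CPM, all absent or low members by name, and up to 4 genes of each wider list, those past a threshold or otherwise of highest mean CPM. All other genes given with values were added after their values were seen. The members and lists were chosen with earlier results of these data known.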

Additional observations from a re-analysis of the deposited data

How the results depend on the processing

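Of all genes, edgeR called 3. DESeq2 called 498, the replicate block left 0 (1779 genes at an unadjusted p under 0.05), and leaving out 1 library gave 0 to 928. Of the interferon genes, edgeR called 0 of 33. DESeq2 called 2, and leaving out 1 library gave 0 to 2 in edgeR and 0 to 7 in DESeq2, the DESeq2 leave-outs having been chosen after seeing the data. In DESeq2 these were 7 without ΔNSPs clone 1 (12.4% of all genes called), 2 without clone 3 (1.64%; IFIH1 and ISG15), 1 without Control line 1 (5.04%; IFIH1), and 0 without clone 2, Control line 2 or Control line 3 (1.36%, 0.39% and 0.458%). Interferon genes at an unadjusted p under 0.05 numbered 4, 7 in limma voom (24.5% of all genes), and 2 to 12 with 1 library left out (9.29% to 26.5% of all genes). Their median log2 fold change of -0.05 turned to 0.06 (0.0596) in DESeq2 and 0.06 (0.0591) without the filter on low counts, both of which take in 6 genes near the floor, and lay between -0.15 and -0.02 when 1 library was left out.

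Of the 12 genes named by rule, 3 changed sign under some alternative, all at log2 fold changes near 0, and the cause was not tested. IFI6 turned to -0.00769 with upper quartile factors, and to -0.0987 without Control line 1 (DESeq2 -0.102), -0.0551 without Control line 2 (DESeq2 -0.0520) and -0.206 without clone 2 (DESeq2 -0.208), with 0.201 at the other end without Control line 3. IRF3 turned to 0.00849 without clone 2 (DESeq2 0.00671). MX2 turned to -0.0236 without Control line 3 (DESeq2 -0.0301) and -0.0461 without clone 3 (DESeq2 -0.0486), with 0.2 at the other end without Control line 1. ISG15, IFIH1, IRF7, DTX3L, OAS3, IFIT3, HERC5, TYK2 and BST2 kept their direction under every alternative run.

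Replicate numbers did not pair the samples: same-numbered libraries deviated from their group means with correlations of -0.44, -0.16 and -0.15 across genes. With the number as a replicate block in edgeR, 0 interferon genes passed, 3 had an unadjusted p under 0.05 (12% of all genes), and the median log2 fold change was -0.07. The counts of IRF9, IFITM1, IFI27 and IFI44 lay around the floor of 3 a library, too few for a test; why they were low was not tested.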
